A study of Equus caballus with 20 samples.

Results

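The annexins and dysferlin are genes linked to plasma membrane repair, described here in skeletal muscle of horses with recurrent exertional rhabdomyolysis (RER), a disorder of stiffness and muscle fibre breakdown after exercise. The members are the probes whose gene symbol, ignoring case, is Anxa1 to Anxa8, Anxa11 or Dysf. They were chosen by name as a family, after the log2 ratios of these arrays were known, so the ratios below describe them and carry no test of the members. The rule matched 10 probes for 9 genes among the 24493 probes of the array. Anxa8 matched no probe. Annexin A6 had 2 probes, Anxa6 (probe NM_013472_2321), spelled in mouse style, and ANXA6 (probe CD467728_513), spelled in capitals, which were kept apart.

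A contracting fibre tears its membrane and reseals it within moments of calcium entry. Annexins bind acidic phospholipids when calcium rises and gather at the torn edge, where annexins A1, A2, A5 and A6 build a cap over the lesion in mouse, zebrafish and human cells. Dysferlin, a membrane protein with several calcium-binding C2 domains, brings vesicles to the lesion, and its loss causes a muscular dystrophy in humans and mice.

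The series compared muscle of 5 French Trotter horses with RER with pooled muscle RNA of 10 healthy control horses, in a hip extensor (gluteus medius) and a back muscle (longissimus lumborum). Each RER sample was hybridised with the matching muscle's control pool on 2 dye-swapped arrays, giving 20 arrays. Horses are the replicates (5 per muscle) and the pool is 1 control sample per muscle, so no value below includes the spread among healthy horses. Each value is a log2 ratio, likely RER over pool, where 0 is equality with the pool and each unit of 1 is a 2-fold step.

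That direction is not stated in the labels. RER RNA is the first channel on every array, but the direction is not settled. Over all probes a pair of Cy3 arrays, of horses 2 and 4 in gluteus, correlated at -0.341. That value would be the same with every sign turned, so it cannot show the direction. With every sign turned the sizes stay, and every count above and below 0 changes places. In 4 of the 10 pairs the dye-swapped arrays also correlated below 0 over all probes, at -0.206 and -0.268 in gluteus horses 2 and 3 and at -0.269 and -0.322 in longissimus horses 1 and 2. The arrays held 8966 to 24050 measured probes. Those of horses 1, 2 and 3 in gluteus and horses 1 and 2 in longissimus, 10 arrays, were dense, with at least 22032, and the 10 others were sparse, with at most 17708. A ratio holds no level, so the arrays cannot show how much of any annexin a muscle contained, and the muscle fibre markers, 8 of 9 listed names on the array, could not be checked for abundance.

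Of the 10 member probes, Anxa2, Anxa5, Anxa6 and Anxa11 were measured on all 20 arrays, and Anxa4 and Dysf on 19. Anxa3 and Anxa7 were measured on the 10 dense arrays and on 2 sparse ones, those of gluteus horse 5. Anxa1 was measured on 8 arrays, all dense, and ANXA6 on 10 arrays, all sparse. The 206 probes with capital symbols had values on 0% of dense and on average 85.5% of sparse arrays, against 97.8% and 54.2% for the 13486 mouse-style probes. The filter of at least 4 horses in each muscle passed 6 members, Anxa2, Anxa4, Anxa5, Anxa6, Anxa11 and Dysf, among 10176 features.

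**Figure D1:**
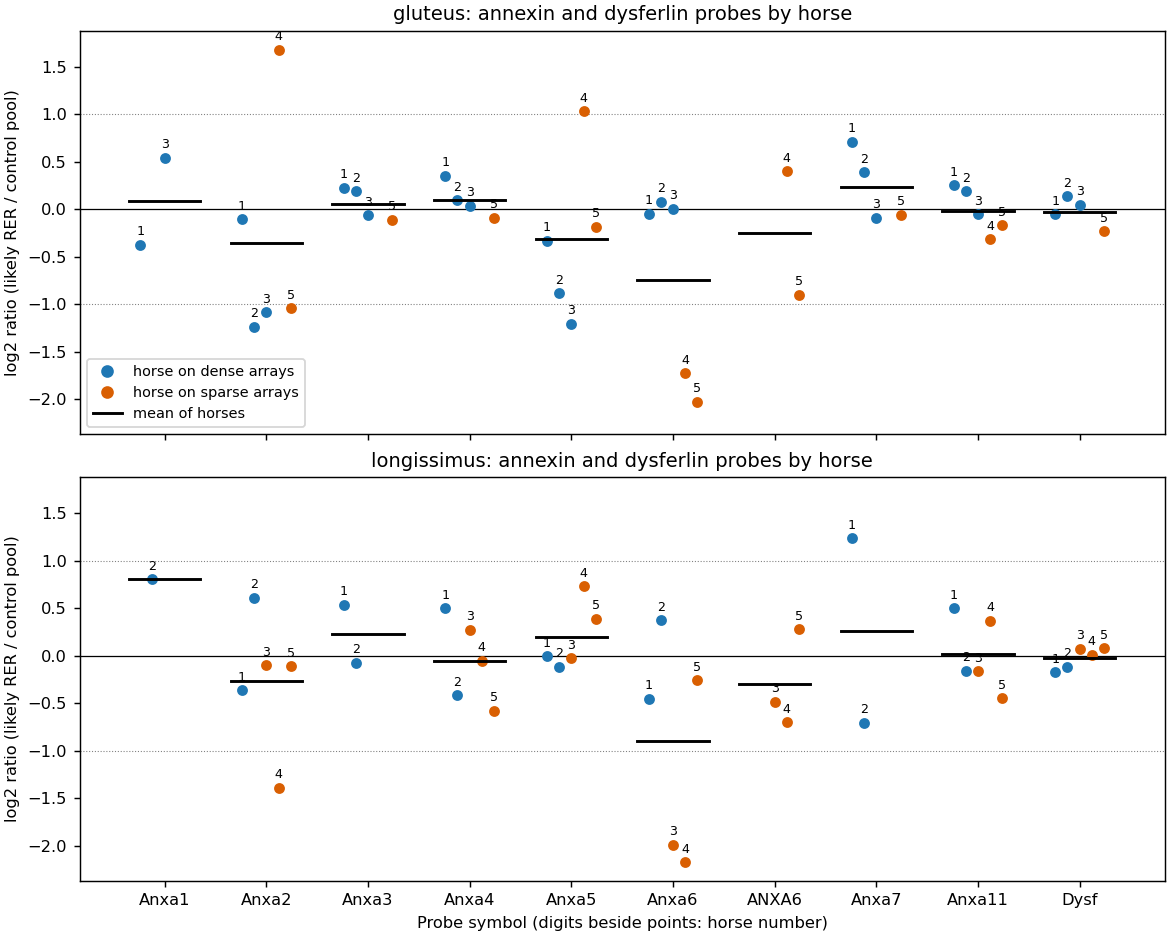
Log2 ratio of each annexin probe and dysferlin in each RER horse against the control pool, gluteus above and longissimus below, with 1 point per horse (the mean of both dye-swapped arrays, numbered by horse), blue on dense and orange on sparse arrays, a bar at the mean of horses and dotted lines at 2-fold. Anxa2, Anxa5 and Anxa6 reach past 1 or -1 in several horses, and Dysf stays within 0.2286 of 0.

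Anxa6 held the lowest ratios of the family. Annexin A6 is the member with a doubled annexin core, and in mice a truncating variant of its gene worsens muscular dystrophy. In gluteus, Anxa6 was at -0.047, 0.078 and 0.0063 in horses 1, 2 and 3, and at -1.72 and -2.02 in horses 4 and 5. In longissimus it was at -0.455 and 0.373 in horses 1 and 2, at -1.99 and -2.18 in horses 3 and 4, and at -0.261 in horse 5. The values thus lay in 2 bands, 4 near -2 and 6 between -0.455 and 0.373, with none between.

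Both dye-swapped arrays gave the low values. The Cy3 and Cy5 arrays read -1.85 and -1.60 in gluteus horse 4, and -2.09 and -1.95 in gluteus horse 5. They read -2.16 and -1.82 in longissimus horse 3, and -2.10 and -2.25 in longissimus horse 4. The sign matched between the arrays in 10 of 10 pairs, and a single array lay on average 0.0573 in gluteus and 0.107 in longissimus from the mean of its pair, less than the gap between the bands. Counted from the lowest, Anxa6 ranked 65 of 8760 features in gluteus horse 4, 49 of 13899 in gluteus horse 5, 39 of 11545 in longissimus horse 3 and 227 of 8328 in longissimus horse 4.

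The low band did not follow the horse. Horse 4 was low in both muscles. Horse 5 was low in gluteus at -2.02 and not in longissimus at -0.261, though its arrays were sparse in both. Horse 3 was at 0.0063 on dense gluteus arrays and at -1.99 on sparse longissimus arrays. All 4 low values came from sparse arrays, where 4 of 5 horse and muscle pairs were low, and none of the 5 pairs on dense arrays was. Horses 1, 2, 4 and 5 had arrays of 1 group in both muscles, so the horse and its array group cannot be told apart there, and in horse 3 the muscle and the array group cannot. Of 6275 features measured in all 10 pairs, 34 (0.542%) were at -1 or below in the same 4, and 10 (0.159%) were also within 1 of 0 in the other 6. The 4 named ones among these 10 were Anxa6, the immune receptor Btla, the nuclear receptor Nr2f6 and the RNA-binding gene Rbms2.

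The capital probe of the same gene had no value as low as -1. ANXA6 was at 0.400 and -0.897 in gluteus horses 4 and 5, and at -0.487, -0.702 and 0.278 in longissimus horses 3, 4 and 5. It shared its sign with Anxa6 in 3 of 5 pairs, and differed from it by 1.35 on average. Gluteus horse 4 was the widest apart, with Anxa6 at -1.72 and ANXA6 at 0.400. Among the 69 symbols whose 2 spellings could be compared this way, the median difference was 0.407 and annexin A6 had the largest. How well either probe matches horse RNA was not tested. In the 4 pairs where Anxa6 was low, ANXA6 lay between -0.897 and 0.400 and was below 0 in 3, and in longissimus horse 5, where Anxa6 was not low, it was above 0.

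**Figure D2:**
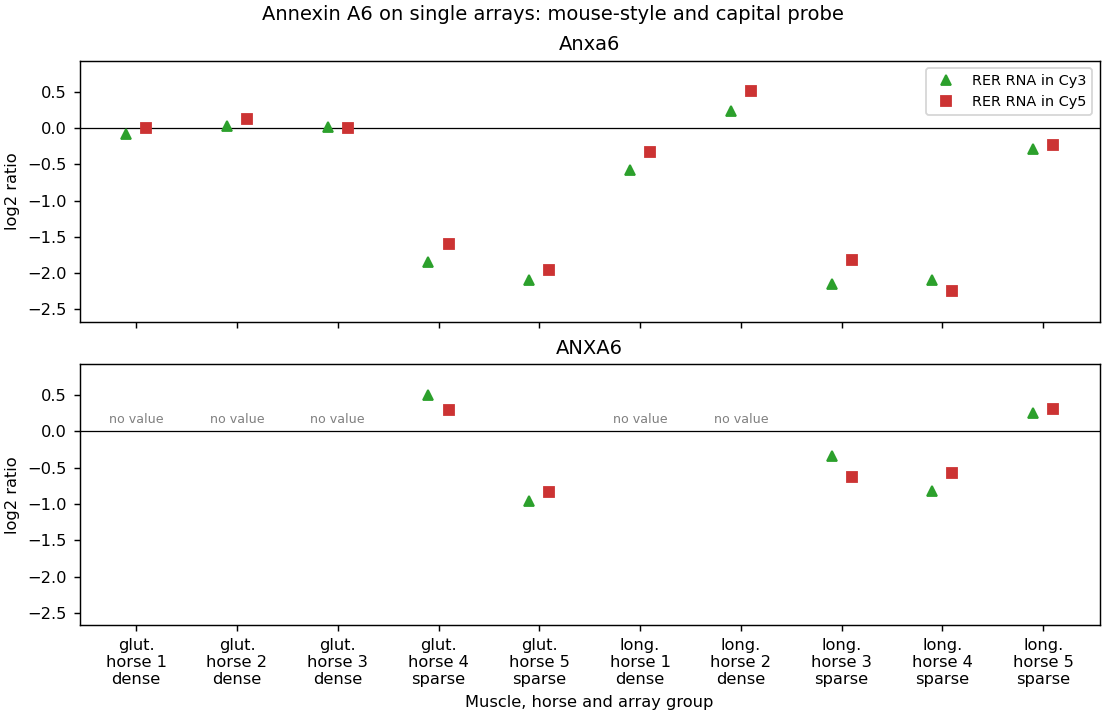
Log2 ratio of annexin A6 on single arrays, for the mouse-style probe Anxa6 above and the capital probe ANXA6 below, with triangles for RER RNA in Cy3 and squares for RER RNA in Cy5, by muscle, horse and array group. Anxa6 lies near -2 on both arrays in 4 horse and muscle pairs, all sparse, while ANXA6 has no value on dense arrays and stays between -0.962 and 0.499 on sparse ones.

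Averaged over horses, Anxa6 was at -0.742 ± 0.420 in gluteus (SE of the limma fit, n = 5, 95% interval -1.67 to 0.186) and at -0.901 ± 0.420 in longissimus (SE, n = 5, interval -1.83 to 0.0262). With 1 value per horse, the mean of both muscles, it was at -0.822 ± 0.291 (SE, n = 5, interval -1.51 to -0.132). The horse means were -0.251, 0.226, -0.991, -1.95 and -1.14, below 0 in 4 of 5. With the Cy3 array turned in the pairs that correlate below 0, this mean was -0.792 ± 0.385 (SE over horses, n = 5), with 3 of 5 horses below 0. On dense arrays alone the averages were 0.0125 in gluteus and -0.0408 in longissimus, and on sparse arrays alone -1.87 and -1.47. Leaving out horse 5 gave -0.421 in gluteus, and leaving out horse 4 gave -0.583 in longissimus.

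Anxa2 varied most widely in gluteus, with an SD of 1.22 over horses. Annexin A2 joins S100a10 in a tetramer at the membrane that binds plasminogen and links membranes to actin. In gluteus, Anxa2 was at -0.106, -1.24, -1.09, 1.68 and -1.04 in horses 1 to 5, so that 3 horses stood more than 2-fold below the pool and horse 4 more than 2-fold above it. Its longissimus values were -0.365, 0.611, -0.104, -1.39 and -0.112. Horse 4 held both extremes, high in gluteus and low in longissimus, a difference of 3.07.

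Anxa5 followed a similar order in gluteus. Annexin A5 binds phosphatidylserine and forms ordered lattices on membranes. In gluteus it was at -0.330, -0.881, -1.20, 1.03 and -0.185 in horses 1 to 5, again with horse 4 alone above 0. In longissimus it was at -0.0060, -0.120, -0.0293, 0.727 and 0.387. Horse 4 was thus the highest in both muscles for Anxa5, but for Anxa2 only in gluteus.

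The gluteus extremes differed in how far the dye swap bore them. In horse 4 both arrays were high, at 1.56 in Cy3 and 1.80 in Cy5 for Anxa2 and at 1.08 and 0.988 for Anxa5. In horse 5 both arrays of Anxa2 were low, at -1.29 and -0.795. In horses 2 and 3, by contrast, the low means came from 1 array each. In horse 2 Anxa2 read -2.38 in Cy3 and -0.0902 in Cy5, and Anxa5 read -1.71 and -0.0541. In horse 3 the low array was the other one, with Anxa2 at -0.0761 in Cy3 and -2.09 in Cy5, and Anxa5 at -0.318 and -2.09. Both pairs are among those whose arrays correlate below 0 over all probes. With their Cy3 array turned, horse 2 changed sign to 1.15 for Anxa2 and 0.827 for Anxa5, and horse 3 stayed at -1.01 and -0.885.

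**Figure D3:**
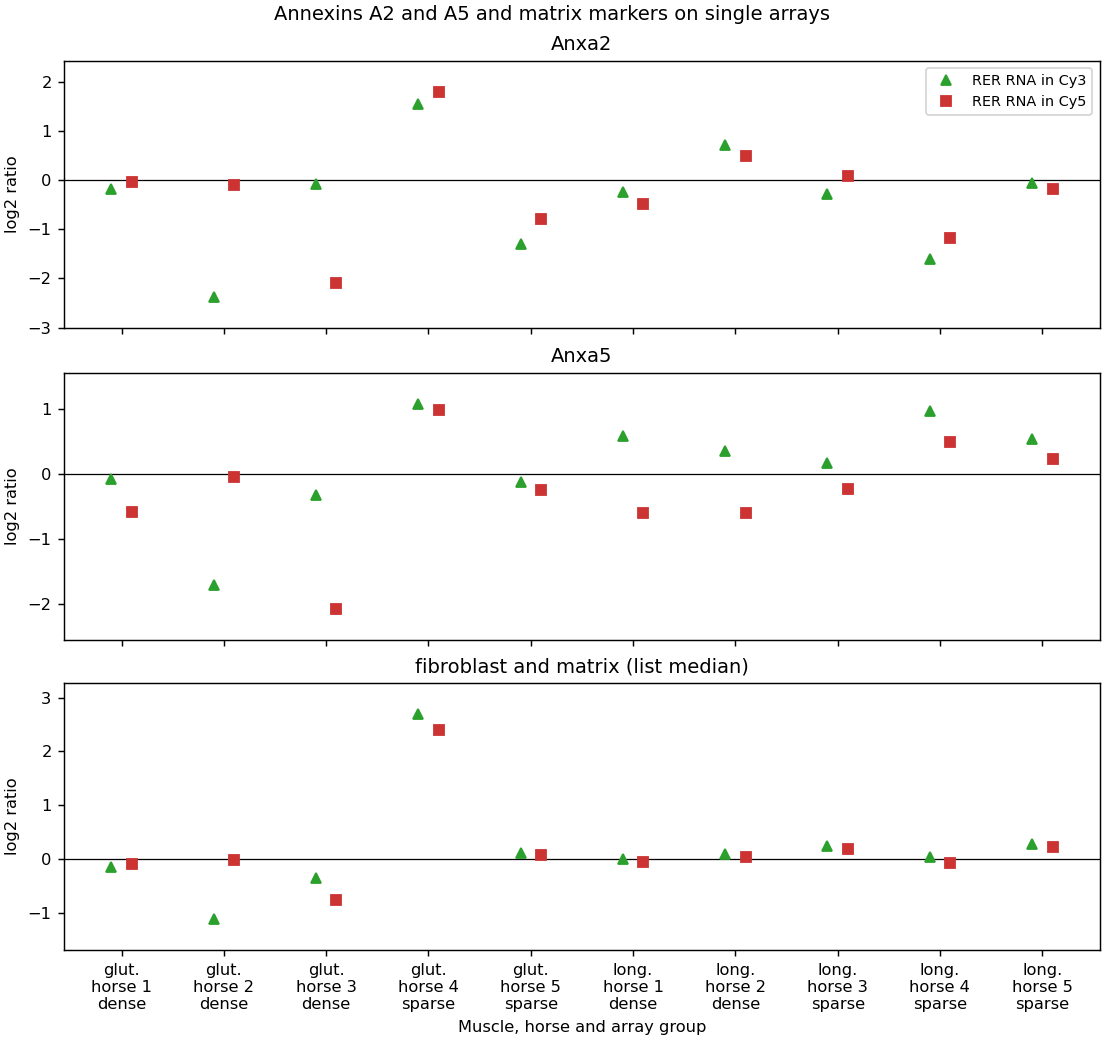
Log2 ratio of Anxa2 and Anxa5 on single arrays, with triangles for RER RNA in Cy3 and squares for RER RNA in Cy5, by muscle, horse and array group. In gluteus horse 4 both arrays lie near or above 1, while in gluteus horses 2 and 3 only 1 array of the pair lies near -2.

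Markers of connective tissue were high in gluteus horse 4 and low in horses 2 and 3, as Anxa2 and Anxa5 were, but not low in horse 5, where Anxa2 was. Of 12 fibroblast and matrix features on the array, 7 to 10 were measured in each pair. Their median in gluteus horse 4 was 2.59, with 8 of 10 at least 2-fold above the pool. Of all features there, 4.24% were past 2-fold in either direction. Among the 8 were the collagens Col1a2 at 3.63 and Col3a1 at 3.66 and the intermediate filament Vim at 2.68, and Col1a1 and Lum each counted in both spellings. The list medians in gluteus were -0.126, -0.542, -0.427 and 0.14 in horses 1, 2, 3 and 5, and lay between -0.0754 and 0.34 in longissimus. By array, the list median was -1.12 in Cy3 and -0.0208 in Cy5 for gluteus horse 2, and -0.359 and -0.763 for gluteus horse 3. Both of these array pairs correlate below 0 over all probes, so the low values there depend on the orientation. The macrophage list was at 0.0774 in gluteus horse 4, and the regenerating muscle list at 0.783 with cardiac actin Actc1, an actin of developing muscle, at 5.09. Their part in the annexin ratios was not tested. In bulk tissue, fewer cells of a type and less RNA per cell cannot be told apart.

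In longissimus horse 4, where Anxa2 and Anxa6 were low, 4 of 8 measured muscle fibre features were at least 2-fold below the pool (list median -1.15), in a sample where 17.6% of all features were past 2-fold in either direction. The fast troponin Tnnc2 was at -5.44 and creatine kinase Ckm at -4.78, but the capital probe CKM was at -0.174, and the actin Acta1 and myoglobin Mb at 0.472 and 0.16. The part of these markers in the annexin ratios was not tested either.

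Averaged over horses, Anxa2 was at -0.358 ± 0.391 in gluteus (SE, n = 5, 95% interval -1.22 to 0.505) and at -0.273 ± 0.391 in longissimus (SE, n = 5, interval -1.14 to 0.591). Anxa5 was at -0.313 ± 0.259 in gluteus (SE, n = 5, interval -0.884 to 0.258) and at 0.192 ± 0.259 in longissimus (SE, n = 5, interval -0.379 to 0.763). Every interval spans 0. For Anxa2 the muscles had opposite signs and partly offset each other in horses 2 and 4, and both lay below 0 in horses 1, 3 and 5. The mean of both was -0.235, -0.313, -0.595, 0.144 and -0.578 in horses 1 to 5, or -0.315 ± 0.116 (SE, n = 5, interval -0.589 to -0.0414). With the Cy3 array turned in the pairs that correlate below 0, the gluteus averages changed sign, to 0.134 ± 0.376 for Anxa2 and 0.0922 ± 0.275 for Anxa5 (SE, n = 5), and the mean of both muscles for Anxa2 was -0.116 ± 0.21 (SE over horses, n = 5). Without horse 4, Anxa2 was at -0.868 in gluteus and 0.00741 in longissimus, and Anxa5 at -0.65 and 0.058.

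Annexin A1, the glucocorticoid-induced member that interacts with dysferlin and acts on leukocytes, could be followed in few horses. Anxa1 had values on both arrays in 3 pairs, at -0.374 in gluteus horse 1, 0.543 in gluteus horse 3 and 0.804 in longissimus horse 2. The last 2 are means of arrays with opposite signs, -0.358 in Cy3 and 1.44 in Cy5 for gluteus horse 3, and -0.448 and 2.06 for longissimus horse 2. Both pairs correlate below 0 over all probes, and with the Cy3 array turned Anxa1 was at 0.901 and 1.25 there. Single arrays read 0.593 in gluteus horse 2 and 0.423 in longissimus horse 1. No horse gave a value on both arrays in both muscles.

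Dysf had the smallest spread of the members in the deposited orientation. In gluteus, Dysf was at -0.0524, 0.139, 0.0473 and -0.229 in horses 1, 2, 3 and 5. In longissimus it was at -0.175, -0.116, 0.0730, 0.0069 and 0.0786 in horses 1 to 5. Its averages were -0.0236 ± 0.0853 in gluteus (SE, n = 4, 95% interval -0.214 to 0.167) and -0.0264 ± 0.0763 in longissimus (SE, n = 5, interval -0.197 to 0.144), and both intervals span 0. With the Cy3 array turned in the pairs that correlate below 0, Dysf in gluteus was at -0.0524, -0.266, -0.194 and -0.229, or -0.185 ± 0.0808 (SE, n = 4). In longissimus it then averaged -0.0209 ± 0.0723 (SE, n = 5). A turned value takes the Cy3 array from the Cy5 array, so it falls below 0 wherever Cy3 reads above Cy5. Cy3 did so for Dysf in every complete pair, so the sign of the turned values in gluteus horses 2 and 3 was fixed by the dye difference.

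The small spread is of the dye-swap mean and not of the single arrays. For Dysf the Cy3 array was above the Cy5 array in 9 of 9 pairs, and the sign of the arrays matched in 2 of 9. The Cy3 arrays averaged 0.186 in gluteus and 0.108 in longissimus, and the Cy5 arrays -0.234 and -0.161. In gluteus horse 4 only the Cy3 array had a value, 0.959, and it entered no mean. Of 9081 probes with at least 9 complete pairs, 14.2% kept 1 dye above the other in every pair. Anxa11 did so too, with Cy3 above in 10 of 10, and Anxa5 nearly, in 9 of 10. Cy3 was also above in 6 of 6 complete pairs for Anxa3 and 8 of 9 for Anxa4, and Cy5 in 3 of 3 for Anxa1. The others were mixed, with Cy3 above in 4 of 10 for Anxa2, 2 of 10 for Anxa6, 2 of 5 for ANXA6 and 4 of 6 for Anxa7.

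Annexins A3, A4, A7 and A11 are linked to secretory vesicles and membrane traffic more than to the repair cap. Anxa11, which binds RNA granules and lysosomes in mammalian cells, was at 0.253, 0.190, -0.0497, -0.314 and -0.166 in gluteus horses 1 to 5. Its longissimus values were 0.496, -0.160, -0.167, 0.364 and -0.451. It averaged -0.0173 ± 0.138 in gluteus and 0.0165 ± 0.138 in longissimus (SE, n = 5 each), with no horse past 2-fold.

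Anxa4, known from secretory epithelia, was at 0.353, 0.0951, 0.0381 and -0.0882 in gluteus horses 1, 2, 3 and 5, and its single Cy3 value in horse 4 was 0.420. The longissimus values were 0.496, -0.418, 0.270, -0.0558 and -0.582. Its averages were 0.0994 ± 0.166 in gluteus (SE, n = 4) and -0.0581 ± 0.149 in longissimus (SE, n = 5). Both muscles of horse 1 lay above 0 and both of horse 5 below it.

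Anxa7, or synexin, which promotes fusion of secretory granules, was highest in horse 1, at 0.713 in gluteus and 1.23 in longissimus. Its other values were 0.388, -0.0867 and -0.0544 in gluteus horses 2, 3 and 5, and -0.706 in longissimus horse 2. In longissimus horse 1 both arrays read alike in the deposited orientation, at 1.18 in Cy3 and 1.28 in Cy5. These arrays correlate below 0 over all probes, and with the Cy3 array turned Anxa7 there was at 0.0496, within 2-fold. Anxa3, abundant in neutrophils, was at 0.227, 0.191, -0.0641 and -0.109 in gluteus horses 1, 2, 3 and 5. In longissimus it was at 0.533 and -0.0750 in horses 1 and 2, means of Cy3 and Cy5 arrays with opposite signs in both horses. Both pairs correlate below 0, and with the Cy3 array turned Anxa3 was at -0.723 and -0.542 there. Cy3 read above Cy5 for Anxa3 in 6 of 6 complete pairs, so these turned values had to fall below 0.

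Across horses the family did not move as a block. Anxa2 and Anxa5 correlated at 0.529 over the 10 horse and muscle pairs, Anxa5 and Anxa6 at -0.585, and Anxa2 and Anxa6 at 0.0214 (Pearson). Anxa4 and Anxa11 correlated at 0.73 over 9 pairs. Over the 6 pairs in which Anxa3 and Anxa7 were measured, Anxa3 and Anxa11 reached 0.987 and Anxa4 and Anxa7 0.977, with horse 1 high for all of these. With the Cy3 array turned in the pairs that correlate below 0, 4 of these 6, the values were 0.911 and 0.768. In those 4 the turned values are differences between the dyes. Longissimus horse 1 was then at -0.723 for Anxa3, -0.358 for Anxa4, -0.344 for Anxa11 and 0.0496 for Anxa7. These are descriptions over points that share horses, control pools and array groups.

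The spread over the horse and muscle pairs (9 for Anxa4 and Dysf, 10 for the others) differed between members. Its SD was 1.02 for Anxa6, 0.949 for Anxa2 and 0.674 for Anxa5, values exceeded by 2.04%, 2.55% and 6.21% of the 10176 features. It was 0.349 for Anxa4 and 0.31 for Anxa11, nearer the median of 0.26 over all features. For Dysf it was 0.126, and 92.3% of features varied more.

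**Figure D4:**
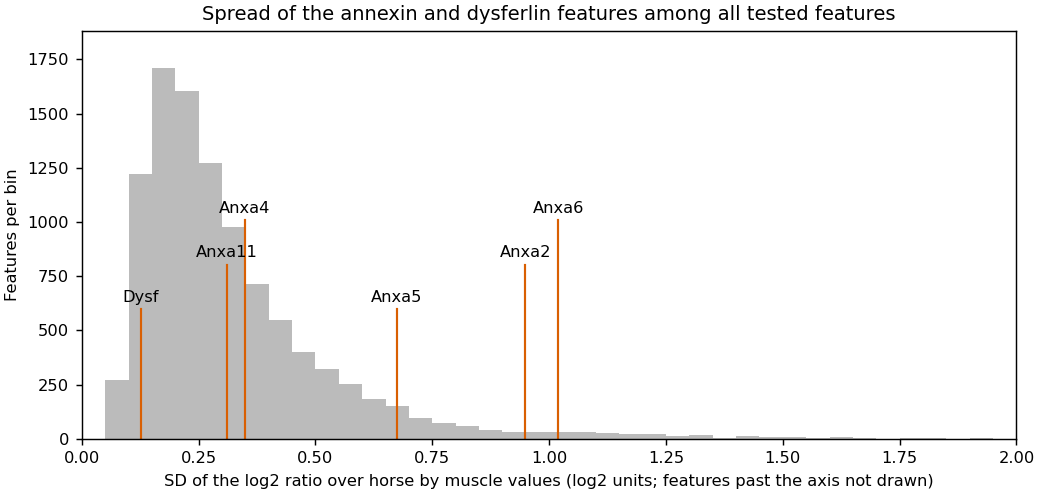
Distribution over 10176 features of the SD of the log2 ratio across the 10 horse and muscle pairs, with the 6 filtered members marked. Anxa6, Anxa2 and Anxa5 lie in the right tail and Dysf left of the median of 0.26. The axis ends at an SD of 2, and 9 features lie beyond it.

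Read against all features of the same horse, members past 2-fold were few but concentrated. In gluteus, 0 of 9 measured members were past 2-fold in either direction in horse 1, where 0.772% of all features were. The count was 1 of 8 in horse 2 (Anxa2, background 3.37%) and 2 of 9 in horse 3 (Anxa2 and Anxa5, background 0.477%). It was 3 of 5 in horse 4 (Anxa2 and Anxa5 up, Anxa6 down, background 4.24%) and 2 of 9 in horse 5 (Anxa2 and Anxa6, background 1.65%). In longissimus, 1 of 8 was past 2-fold in horse 1 (Anxa7, background 5.37%), 0 of 9 in horse 2 (0.62%) and 1 of 7 in horse 3 (Anxa6, 1.46%). The count was 2 of 7 in horse 4 (Anxa2 and Anxa6, 17.6%) and 0 of 7 in horse 5 (1.06%). In the deposited orientation, 12 of 78 measured values in all were past 2-fold, 5 of them of Anxa2, 4 of Anxa6, 2 of Anxa5 and 1 of Anxa7. Some change with the Cy3 array turned in the pairs that correlate below 0. Anxa5 in gluteus horse 3 (-0.885) and Anxa7 in longissimus horse 1 (0.0496) then lay within 2-fold. Anxa1 in longissimus horse 2 (1.25) lay past it, and Anxa2 in gluteus horse 2 (1.15) lay above the pool. As the family was chosen with these ratios known, the backgrounds are given for scale only.

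No feature passed the adjusted limma test in any comparison, so 0 of 6 members were called against a background of 0% in gluteus, in longissimus, in their difference and in the mean of both muscles. The smallest adjusted p over all features was 1 in gluteus, 0.827 in longissimus, 1 for gluteus minus longissimus and 0.999 for the mean of both. Before adjustment, a limma p under 0.05 was reached by 187 features (1.84%) in gluteus, 426 (4.19%) in longissimus, 185 (1.82%) in the difference and 191 of 10063 (1.9%) in the mean of both muscles. Of the 6 members, 0 were among them in the first 3 comparisons and 2, Anxa2 and Anxa6, in the last, which supports nothing about members chosen on the same ratios.

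The median of the 6 members was -0.168 in gluteus, with 5 of 6 below 0 (0.00401 with the Cy3 array turned in the pairs that correlate below 0), against -0.00964 over all features, 53.9% of which were below 0. In longissimus it was -0.0422, with 4 of 6 below 0 (-0.206 so turned), against -0.0032 and 51%. For gluteus minus longissimus, each a ratio to the pool of its own muscle, the member with the widest difference was Anxa5, at -0.505 ± 0.366 (SE, 95% interval -1.31 to 0.303). For Dysf the difference was 0.00274 ± 0.114 (SE, interval -0.253 to 0.258).

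Known partners of the family were read from a list of 55 names, of which 44 were on the array. With capital and mouse-style spellings apart they gave 48 features, of which 22 passed the filter. In gluteus, 6 of the 22 were above 0 and 16 below, with a median of -0.0382 and 0 called. In longissimus, 10 were above and 12 below, with a median of -0.0105 and 0 called. S100a10, the annexin A2 partner, was measured on dense arrays only, at 0.541, 0.158 and -0.0448 in gluteus horses 1, 2 and 3 and at 0.821 and -0.208 in longissimus horses 1 and 2. Its sign was opposite to that of Anxa2 in 4 of these 5 pairs. All but gluteus horse 1 have arrays that correlate below 0 over all probes, so these signs depend on the orientation. With the Cy3 array turned, Anxa2 was at 1.15 and -1.01 in gluteus horses 2 and 3. In longissimus horses 1 and 2 it was then at -0.118 and -0.107. Turned values of S100a10 were not worked out, so its signs cannot be set against these.

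In gluteus, the partners with the smallest p were the calcium-binding S100a6 at -0.435 ± 0.237 (SE, n = 4), the membrane-scission subunit Chmp4b at -0.148 ± 0.0941 (n = 5), the vesicle fusion protein Vamp7 at -0.228 ± 0.17 (n = 4) and the dysferlin-binding parvin Parvb at 0.11 ± 0.0895 (n = 5). S100a6 was at -1.19 and -0.897 in horses 2 and 3 and at 0.521 in horse 4, the same signs as Anxa2 and Anxa5 in those horses. The arrays of horses 2 and 3 correlate below 0 over all probes, so the signs there depend on the orientation.

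In longissimus they were the muscle protease Capn3 at -1.31 ± 0.591 (SE, n = 5), the vesicle protein Vamp2 at -0.131 ± 0.0733, the caveola protein Cav1 at 0.292 ± 0.188 and the dysferlin- and S100a10-binding scaffold Ahnak at -0.582 ± 0.415 (n = 5 each). Capn3, whose loss in humans causes a muscular dystrophy, owed its average to horses 1 and 4, at -3.9 and -3.33. Its other 3 values lay between -0.0424 and 0.635. Ahnak likewise rested on horse 4, at -3.08. The longissimus arrays of horses 1 and 2 correlate below 0 over all probes, so the Capn3 and Ahnak values there depend on the orientation. In longissimus horse 4, 17.6% of all features were past 2-fold in either direction.

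The features most like each member over all 10 pairs were found among 3742 named features. For Anxa2 they were the cap-binding Eif4e2 (r = 0.912), the actin-sequestering thymosin Tmsb4x (0.908) and the matrix gene Efemp2 (0.895). For Anxa5 they were the ribosomal protein Rps20 (0.968), the chloride channel family gene Clic4 (0.966) and the RNA-binding Nono (0.957). For Anxa6 they were the phosphate transporter Slc34a2 (0.972), Nr2f6 (0.951) and the interleukin receptor Il1rl1 (0.95), and for Anxa11 Dpy30 (0.965), Rmi1 (0.96) and Faim (0.96). These values are the highest of many and share horses, pools and array groups. They used the deposited orientation, and 4 of the 10 pairs have arrays that correlate below 0. A high r does not mean a like size. Il1rl1 lay between -0.072 and 0.176 and Slc34a2 between -0.574 and 0.157, while Nr2f6 ran from -2.57 to 0.384.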

How the data were processed

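RNA was extracted with TRIZOL and labelled indirectly with Cy3 or Cy5, per the labels' protocols. The authors deposited log2 ratios that were already normalized, 24493 probes by 20 arrays. That they are log2 follows from their floor of -6.6439, the log2 of 0.01. Scanner, background correction, normalization method and the filter that left blanks are not given in the sources used here.

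Here each array was centred on its median, both dye-swapped arrays of a sample were averaged (none where 1 was blank), and probes with the same symbol, case included, were averaged. A feature needed values in 4 or more horses per muscle. Its mean was then set against 0 by limma (version 3.58.1, R 4.3.3) with Benjamini-Hochberg adjustment at 0.05. Each comparison used 1 fit over all features, which was also checked on simulated data. The deposited orientation was kept for every array. Both muscles come from the same horses, which pairs the samples, and each horse's deviations correlated between muscles at 0.58, 0.304, -0.0976, 0.0206 and -0.00245.

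The members and lists were chosen with earlier results of these data known. All members are named, with the 4 partners of smallest p in each muscle and the 3 features most like each fully measured member. Probe sequences were not used here.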

Additional observations from a re-analysis of the deposited data

How the results depend on the processing

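No feature was called in the difference between muscles under any of 19 alternatives, and no member was called in any comparison under any alternative. Calls of other genes appeared in single-dye or sparse-array fits. Cy3 arrays alone gave 2 in gluteus and 2 in longissimus, Cy5 arrays alone gave 4 in gluteus, 92 in longissimus and 7 in the mean of both muscles, and sparse arrays alone gave 1 in each of these 3 comparisons. The cause was not tested. The paired fit, with the horse as replicate block, gave 0 calls in gluteus, longissimus and their difference and changed no call. Leaving out each horse in turn gave 0 to 0 calls. The members' median in gluteus ran from -0.26 to -0.0689 with 1 horse left out and was 0.0813 on dense arrays alone and 0.00401 with the Cy3 array turned in pairs correlating below 0. In longissimus it ran from -0.15 to 0.0139 with 1 horse left out, above 0 without horse 2 (0.0139) or horse 5 (0.0101). There it was -0.206 with those arrays turned, 0.157 on Cy3 arrays, -0.238 on Cy5 arrays, 0.0808 on dense arrays, -0.304 on sparse arrays and -0.128 with all 5 horses required, where 4 members remained. Anxa6 was below 0 in 16 of 17 alternatives in gluteus (-1.87 to 0.0125) and in 17 of 17 in longissimus (-1.47 to -0.0408). The upper ends are the dense arrays alone, and every other alternative kept some of the low values of the sparse arrays. With the spellings Anxa6 and ANXA6 averaged, it was -0.417 in gluteus and -0.55 in longissimus. Anxa2 in gluteus ran from -0.868 to 0.319 and Anxa5 from -0.804 to 0.424. Dysf ran from -0.234 to 0.341 in gluteus, the ends being the Cy5 and Cy3 arrays alone. With 5 horses and 1 pool per muscle, the number of animals limits every value.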
